A study of Mus musculus with 28 samples.

Results

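Endothelial genes and vessel receptors were followed in mouse 3LL tumors and in the cultured 3LL cells that formed them. The members were 10 genes chosen by symbol, Kdr, Flt1, Tek, Tie1, Pecam1, Cdh5, Vwf, Cd93, Emcn and Egfl7, and each was carried by 1 row of a table of 43143 rows. The 3LL line is a Lewis lung carcinoma line of C57BL/6 origin, and 4 kinds of tumor and 3 kinds of cells were sequenced. WT cells carried no edit, KEAP1-KO cells were cut by CRISPR in exon 2 of Keap1, and KEAP1-NRF2-DKO (DKO) cells were made from KEAP1-KO cells by a further cut in exon 5 of Nrf2. Tumors grew for 10 days under the skin of male albino C57BL/6 mice that were 6 weeks old at transplantation, with an unedited host in every group. In Experiment A each mouse carried WT cells on the left flank and KEAP1-KO cells on the right, and in Experiment B it carried KEAP1-KO cells on the left and DKO cells on the right, so genotype and flank cannot be told apart within an experiment. KEAP1-KO (A) and KEAP1-KO (B) denote the KEAP1-KO tumors of the respective experiment. Each of the 4 tumor groups and 3 cell groups held 4 libraries, 28 in all. Edited lines were grown from single cells, and which line was sequenced is not given in the sources used here, so genotype and clone cannot be told apart.

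Blood vessels in a transplanted tumor are built largely by the host. Endothelial cells line them, are held together by junction proteins such as VE-cadherin, and grow, survive or regress under ligands of the VEGF and angiopoietin families, which are sensed by receptor tyrosine kinases on the endothelial surface. KEAP1 marks the transcription factor NRF2 for degradation, so loss of KEAP1 leaves NRF2 active in the cancer cells, and the deletion of NRF2 on top of it removes that activity.

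Libraries were made from RNA depleted of ribosomal RNA with a directional kit. A deposited value was log2(normalized count + 4), so that 2 stood for no reads, and a difference of 1 on this log2 scale is a doubling for rows far above 4. The steps of the low values gave the reads behind them: 4222363 to 6048378 reads in a tumor and 5808979 to 7524265 in a library of cells. As a check of the labels, Nqo1, an NRF2 target, was higher by 5.55 in KEAP1-KO than in WT tumors and fell by 6.30 from KEAP1-KO to DKO tumors. The submitted extraction text names liver, but the albumin row Alb held at most 6.76 normalized counts in a tumor. Most rows were not full-length coding transcripts. In the GENCODE vM21 annotation 5 members' rows were retained-intron transcripts (Pecam1, Kdr, Flt1, Vwf and Emcn), Tie1 was a processed transcript, Egfl7 a transcript of the nonsense-mediated decay class, Cdh5 a short protein-coding fragment of 346 bases, and Tek and Cd93 were rows of the whole gene. Coding exons made up 5.37% of the bases of the Flt1 row, 3.03% of the Pecam1 row and 84.1% of the Tie1 row. Salmon shares reads among the isoforms of a gene, so a row's level is uncertain as a measure of its gene. This holds for the gene lists below too. Many of their rows are single transcripts, such as those of Vegfa, Vegfd, Ptprc and Icam1, and their kinds were not looked up. Levels were compared between libraries and not between members, apart from reads in cells, which are used below to pick promoters. Since the rows differ in kind, that contrast describes rows and not genes.

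Promoter sequences were taken for the receptors and for Emcn, since their rows range from no read to reads in every library of cells: the rows of Tie1 and Emcn held no read in any of the 12 libraries of cells and Tek held 1, whereas Flt1 and Kdr held reads in all 12. RefSeq promoters on GRCm38.p6 were at hand for 6 of the 10 members. Below are the 250 bases before the start of each gene, 5' to 3' on the gene's strand. Capitals mark GGAA or its reverse complement, the core bound by ETS factors, a family that includes the endothelial regulators ERG and FLI1. The Tie1 window is chr4:118489850-118490099 on the minus strand, Tek chr4:94739039-94739288 on the plus strand, Emcn chr3:137340828-137341077 on the plus strand, Flt1 chr5:147726012-147726261 on the minus strand and Kdr chr5:75978456-75978705 on the minus strand.
Tie1: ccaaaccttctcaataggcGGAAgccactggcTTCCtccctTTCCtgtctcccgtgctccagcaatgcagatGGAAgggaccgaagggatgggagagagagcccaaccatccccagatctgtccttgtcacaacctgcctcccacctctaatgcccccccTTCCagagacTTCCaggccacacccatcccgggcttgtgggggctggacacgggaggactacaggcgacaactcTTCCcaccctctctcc
Tek: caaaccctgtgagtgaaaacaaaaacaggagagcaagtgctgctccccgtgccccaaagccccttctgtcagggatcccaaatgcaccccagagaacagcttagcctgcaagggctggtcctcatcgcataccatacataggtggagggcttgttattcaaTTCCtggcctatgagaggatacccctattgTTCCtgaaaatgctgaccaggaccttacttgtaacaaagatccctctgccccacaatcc
Emcn: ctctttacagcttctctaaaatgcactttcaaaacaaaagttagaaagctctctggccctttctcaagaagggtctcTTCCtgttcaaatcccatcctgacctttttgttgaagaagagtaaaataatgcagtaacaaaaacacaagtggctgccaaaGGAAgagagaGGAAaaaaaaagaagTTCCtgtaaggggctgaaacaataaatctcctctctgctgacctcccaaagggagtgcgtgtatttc
Flt1: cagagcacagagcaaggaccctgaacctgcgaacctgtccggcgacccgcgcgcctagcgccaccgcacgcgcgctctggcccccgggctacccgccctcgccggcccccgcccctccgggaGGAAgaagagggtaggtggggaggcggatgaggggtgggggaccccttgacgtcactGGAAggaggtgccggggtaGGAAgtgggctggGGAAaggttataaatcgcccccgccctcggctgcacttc
Kdr: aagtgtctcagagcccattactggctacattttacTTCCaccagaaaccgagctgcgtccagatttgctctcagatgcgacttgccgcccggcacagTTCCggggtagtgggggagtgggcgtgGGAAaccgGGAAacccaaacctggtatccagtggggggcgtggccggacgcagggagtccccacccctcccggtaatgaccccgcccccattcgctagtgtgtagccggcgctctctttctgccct
The core was present 7 times in the Tie1 window, 2 times in Tek and 4 times each in Emcn, Flt1 and Kdr. It is a common word, held by 93.4% of 32817 RefSeq promoter windows of the same length, with a median of 3, and 3.82% of all windows held at least as many as Tie1. The antioxidant response element TGACNNNGC, the kind of motif that NRF2 binds, was searched on both strands. It occurred 1 time in Kdr, without overlap with a GGAA core, and not in the windows of Tie1, Tek, Emcn or Flt1, against 10.2% of all windows. The sixth member with RefSeq promoters, Egfl7, is not printed here. It had 3 windows, of which the first, chr2:26580833-26581082 on the plus strand, held the response element 2 times and the others 0 times. A match of letters is a description and not a binding site.

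All 10 members had reads in all 16 tumors, and for 9 of them the lowest tumor lay above the highest library of cells. The exception was Egfl7, which held only 2 to 15 reads in a tumor. As shown in the plot of the members by library, the tumors of all 4 groups stood at nearly the same level for most members. The cultured cells had lower means, closer to the floor of 2 for most members. They lay well above it for Flt1 (6.80, 5.35 and 5.42 in WT, KEAP1-KO and DKO cells) and for Cdh5 in DKO cells (5.54). WT tumors exceeded WT cells for 10 of 10 members by limma's test (24.7% of all rows were called higher there). KEAP1-KO tumors exceeded KEAP1-KO cells for 9 of 10 members in Experiment A (23.9% of rows) and for 10 of 10 in Experiment B (23.9%), and DKO tumors exceeded DKO cells for 10 of 10 (27.6%). Tek, Tie1, Emcn and Egfl7 passed the filter on low values only through the tumors, so these counts describe the rows and are not support for the list. Of 37 tested rows of other endothelial identity genes 35 were called higher in the tumors in each of the 4 comparisons, and this too is a description without support for the list, since 8 of these rows passed the same filter in the cells alone. These libraries are bulk RNA, in which fewer endothelial cells and less RNA per endothelial cell cannot be told apart.

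**Figure D1:**
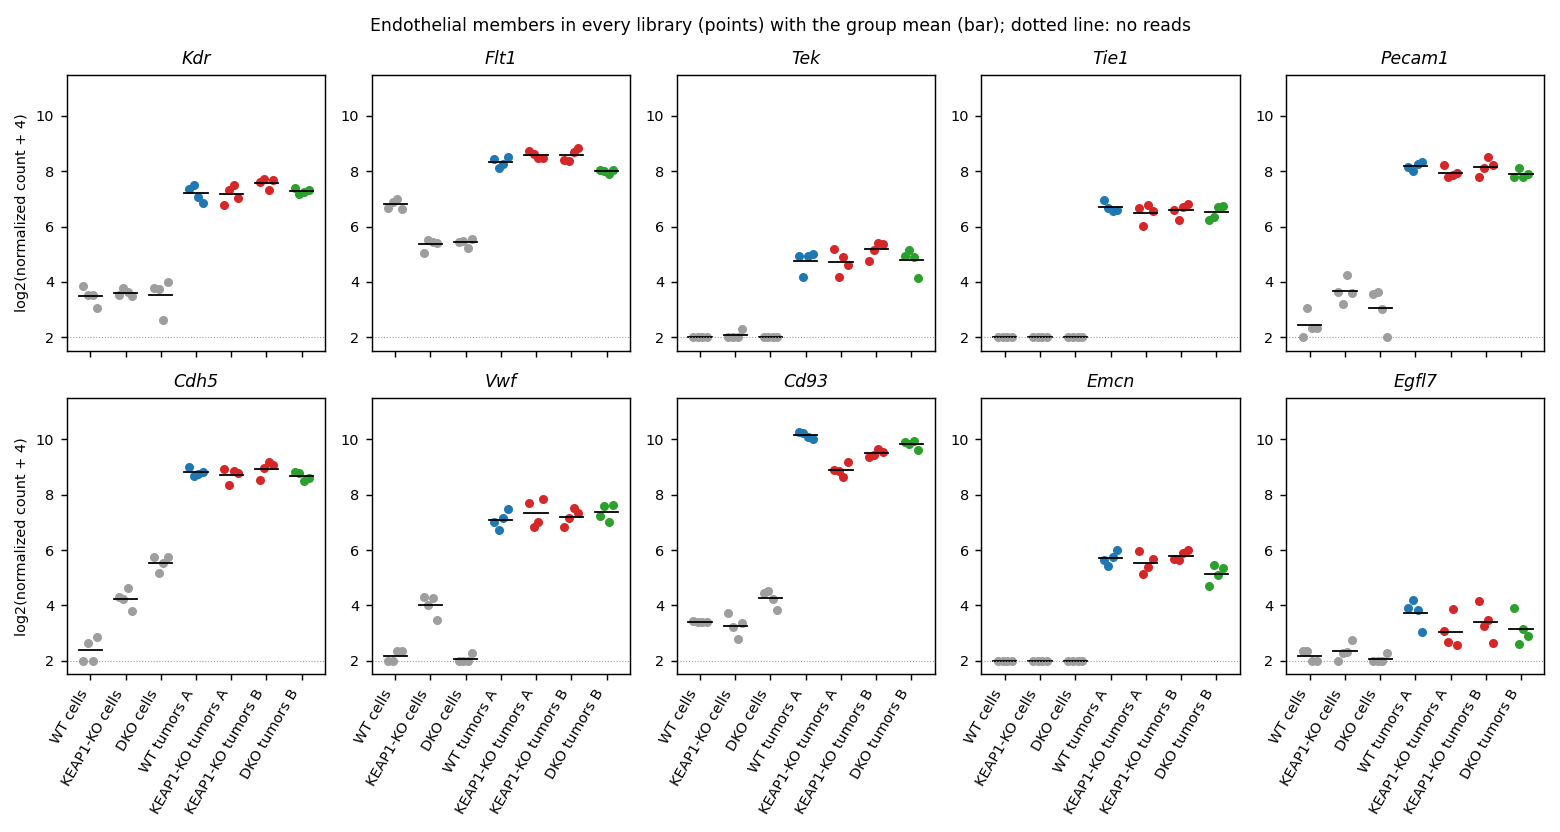
Deposited log2(normalized count + 4) of each member in all 28 libraries, with groups on the horizontal axis, a point for each library and a bar for the group mean of 4. The dotted line at 2 is the value of a row with no reads. Tie1 and Emcn sit on it in all 12 libraries of cells, Flt1 lies far above it in WT cells, and the 4 tumor groups overlap in most panels. In Cd93 the WT tumors lie above both KEAP1-KO groups, in Flt1 the DKO tumors lie below all others, and in Emcn they lie below the KEAP1-KO (B) tumors.

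Between the tumor groups Cd93 and Flt1 were the members that passed the test. All 6 pairs of the 4 tumor groups were tested, and 8 members passed in none of their 48 comparisons (lowest adjusted p = 0.0595, for Emcn). The largest difference among these 8 members was 0.69 on the log2 scale, in Egfl7, whose interval also reached farthest, to 1.52. From WT to KEAP1-KO (A) tumors 1 of 10 members was called, Cd93, which was lower, against 13.1% of all 34215 rows tested, and the members' median difference was -0.12 beside -0.03 for all rows. From KEAP1-KO to DKO tumors of Experiment B 1 of 10 was called, Flt1, also lower, against 8.86% of rows, with a median of -0.26. Both shares are near the background. An adjusted p above 0.05 does not show that a level was the same, and the intervals in the plot of tumor differences give the sizes that these data leave possible.

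**Figure D2:**
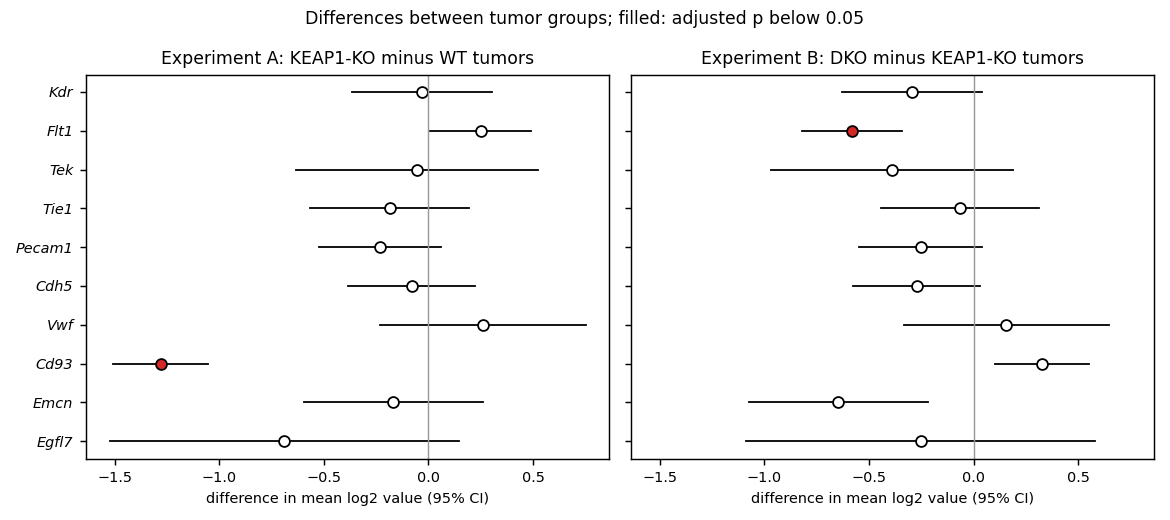
Difference in mean log2 value between tumor groups for each member, Experiment A on the left (KEAP1-KO minus WT) and Experiment B on the right (DKO minus KEAP1-KO), with bars for the 95% confidence interval of the limma fit and n = 4 tumors a group. Filled points passed an adjusted p of 0.05: Cd93 at -1.28 on the left and Flt1 at -0.58 on the right.

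Among the VEGF receptors, Kdr encodes VEGFR2, the main signaling receptor for VEGF-A. Its row held 159, 176, 132 and 112 normalized counts in the WT tumors of Experiment A and 107, 157, 179 and 127 in the KEAP1-KO tumors beside them. In Experiment B it held 192, 205, 157 and 200.04 in KEAP1-KO tumors and 163, 142, 148 and 156 in DKO tumors. The groups overlapped in both experiments. The difference was -0.03 (95% confidence interval -0.37 to 0.31, adjusted p = 0.944) in Experiment A and -0.29 (-0.63 to 0.04, adjusted p = 0.323) in Experiment B. The order of the means ran from KEAP1-KO of Experiment A (7.17) and WT (7.20) through DKO (7.29) to KEAP1-KO of Experiment B (7.58), and no neighbours in it differed beyond their spread. KEAP1-KO (B) tumors were 0.41 above those of Experiment A with an adjusted p of 0.527. In cells Kdr was low, with 2 to 14 reads a library, and its mean lay between 3.49 and 3.60 in the 3 genotypes.

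Flt1 encodes VEGFR1, which binds VEGF-A and PlGF tightly and also exists as a soluble decoy. In Experiment B it was lower in DKO tumors: KEAP1-KO tumors held 334, 329.6, 416 and 459 normalized counts and DKO tumors 262, 256, 234 and 262. Every DKO tumor lay below every tumor of the other 3 groups. The difference was -0.58 ± 0.11 (SE, n = 4 tumors a group, adjusted p = 0.00328), and against the KEAP1-KO (A) tumors it was -0.57 (adjusted p = 0.00272). WT tumors held 341, 274, 304 and 359 normalized counts, which overlapped with the KEAP1-KO tumors of that experiment at 419, 395, 349 and 356, and the difference of 0.25 did not pass (adjusted p = 0.184). DKO tumors were 0.33 below WT tumors, again short of the threshold (adjusted p = 0.0826).

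Skeletal muscle RNA set DKO tumors apart. The summed level of 6 skeletal muscle rows was 403, 180 and 282 normalized counts in DKO tumors 1 to 3 and 21.3 in DKO tumor 4, against 11.2 to 54.2 in the other 12 tumors. Flt1 in DKO tumor 4 was at the level of the others. With that tumor as the only DKO tumor the difference from KEAP1-KO tumors was -0.53, beside -0.58 with all 4 DKO tumors. A fit with 1 tumor in a group loses calls over the whole table, so only effect sizes of such fits are given. The part of muscle in the result was not tested.

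The cultured cells themselves had Flt1 reads, and more of them in WT cells. WT cells held 99.2, 114, 122 and 95.5 normalized counts, KEAP1-KO cells 28.8, 41.9, 39.6 and 38.5, and DKO cells 39.1, 41.0, 33.5 and 42.7. All 4 WT libraries lay above all 8 edited ones. The Flt1 difference of KEAP1-KO from WT cells was -1.45 ± 0.14 (SE, adjusted p = 1.13e-05) and that of DKO from WT cells -1.37 (adjusted p = 1.51e-05), while DKO and KEAP1-KO cells differed by 0.07 (95% confidence interval -0.23 to 0.37). The mean of WT cells was 33.7% of the mean of WT tumors. In the edited genotypes the cells' share was smaller, at 9.79% and 9.67% of the KEAP1-KO (A) and (B) tumors and 15.4% of DKO tumors.

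The angiopoietin receptors Tek and Tie1 passed the test in no pair of tumor groups. Tek encodes TIE2, the receptor for ANGPT1 and ANGPT2, and its row was thin, with 12 to 38 reads in a tumor. Its normalized counts were 26.9, 14.3, 26.5 and 28.01 in WT tumors, 32.2, 13.9, 26.1 and 20.4 in KEAP1-KO (A) tumors, 22.9, 31.7, 38.6 and 37.3 in KEAP1-KO (B) tumors and 26.3, 31.9, 25.9 and 13.6 in DKO tumors. The groups overlapped throughout. Its difference was -0.05 (-0.63 to 0.52) in Experiment A and -0.39 (-0.97 to 0.19) in Experiment B.

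Tie1, an orphan relative of TIE2 that modulates its signaling, was better covered, with 53 to 133 reads a tumor. WT tumors held 119, 98.1, 89.6 and 93.4 normalized counts and KEAP1-KO (A) tumors held 98.9, 61.3, 105 and 89.6. In Experiment B the values were 92.8, 70.7, 99.4 and 108 in KEAP1-KO and 71.2, 78.3, 101 and 104 in DKO tumors. The 4 group means fell within 6.51 to 6.69 on the log2 scale, closer together than the tumors within a group. The differences were -0.19 (-0.56 to 0.19) and -0.06 (-0.44 to 0.31). In the 12 libraries of cells Tie1 had no read and Tek 1. With 3 reads over a group's 4 libraries as the limit that a count of 0 allows, Tie1 was at least 122-fold higher in WT tumors than in WT cells, at least 130-fold and 136-fold higher in KEAP1-KO (A) and (B) tumors, and at least 121-fold higher in DKO tumors. Tek was at least 29.2-fold higher in WT and at least 33.4-fold higher in DKO tumors than in the matching cells.

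The junction and adhesion genes also passed in no pair of tumor groups, but Cdh5 changed in the cultured cells. Pecam1 encodes CD31, a homophilic adhesion molecule of endothelium that platelets and leukocytes also carry. It held 280.2, 255, 301 and 317 normalized counts in WT tumors, 298, 216, 230 and 239 in KEAP1-KO (A) tumors, 217, 272, 358 and 298 in those of Experiment B and 218, 273, 219 and 237 in DKO tumors. All 4 groups overlapped. The difference was -0.23 (-0.53 to 0.06) in Experiment A and -0.25 (-0.55 to 0.04) in Experiment B, with adjusted p of 0.335 and 0.329.

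Cdh5 encodes VE-cadherin, the cadherin of endothelial junctions. Its values were 506, 404, 429 and 448 in WT tumors, 484, 323, 463 and 435 in KEAP1-KO (A) tumors, 370.1, 499.9, 572 and 536 in those of Experiment B, and 450.4, 433, 355 and 384 in DKO tumors. The groups overlapped, and the differences were -0.08 (-0.38 to 0.22) in Experiment A and -0.27 (-0.58 to 0.03) in Experiment B. In cells the row rose in steps. WT cells held 0, 2.16, 0 and 3.22 normalized counts, KEAP1-KO cells 15.8, 14.9, 20.7 and 9.85, and DKO cells 49.8, 31.5, 41.9 and 49.5. The 3 groups did not overlap. Cdh5 was higher in KEAP1-KO than in WT cells by 1.87 ± 0.27 (SE, adjusted p = 0.00035) and higher again in DKO than in KEAP1-KO cells by 1.30 ± 0.27 (adjusted p = 0.00801), a call that was lost with a pseudocount of 0.4. The cells' mean was 0.301% of the tumors' mean for WT and 10.7% for DKO. Pecam1 was 1.23 higher in KEAP1-KO than in WT cells, just short of the threshold (adjusted p = 0.051). It passed over the rows with a symbol alone, with those groups fitted alone and without WT cells 2, and it rested on 6 reads in the 4 WT and 40 reads in the 4 KEAP1-KO libraries.

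Cd93 was the member that moved most between tumors. It encodes a C-type lectin domain receptor of endothelium that monocytes, neutrophils and other myeloid cells carry as well. Normalized counts were 1244, 1209, 1088 and 1043 in WT tumors and 467, 456, 395 and 573 in KEAP1-KO (A) tumors. In Experiment B they were 661, 694, 800.4 and 741 in KEAP1-KO and 969, 914, 980.2 and 783 in DKO tumors. Every WT tumor lay above every KEAP1-KO tumor of both experiments, and the DKO tumors lay between the WT and the KEAP1-KO tumors except that the lowest of them fell below the highest KEAP1-KO tumor of Experiment B. Cd93 fell by 1.28 on the log2 scale from WT to KEAP1-KO tumors (difference -1.28 ± 0.11, SE, adjusted p = 6.65e-07). Against the KEAP1-KO (B) tumors the WT tumors were also higher (-0.66 for KEAP1-KO minus WT, adjusted p = 0.000625, 1 of 10 members called against 11% of rows). DKO tumors were 0.33 above KEAP1-KO tumors of the same experiment, which did not pass (adjusted p = 0.0719) but did after quantile normalization, after rescaling without the 20 highest rows, over rows with a symbol alone or without DKO tumor 4. They were 0.95 above those of Experiment A, which did (adjusted p = 1.7e-05). In that last comparison 2 of 10 members were called, Cd93 higher and Flt1 lower, against 11% of rows.

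Markers of leukocytes and myeloid cells moved with Cd93. In Experiment A 12 of the 14 rows of that list fell, with a list median of -1.81 (13.1% of all rows were called). In Experiment B 8 rose, with a median of 0.82 (8.86% of all rows). Their summed level ranged from 8494 to 10299 normalized counts in WT tumors, 2637 to 3499 in KEAP1-KO (A) tumors, 4427 to 5262 in those of Experiment B and 7200.4 to 9976 in DKO tumors, against 93.5 to 249 in the libraries of cells. Ptprc, which encodes the leukocyte antigen CD45, fell by 2.32 in Experiment A and rose by 1.02 in Experiment B. With DKO tumor 4 as the only DKO tumor the Ptprc difference was 0.71. The order of the 4 groups was the same for Cd93, for Ptprc and for the summed list. The part of leukocytes in the Cd93 level was not tested.

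Both KEAP1-KO tumor groups share a genotype but differ in experiment, flank and neighbouring tumor. Between them 0.164% of all rows were called, and Cd93 was the 1 member among them, higher by 0.62 in Experiment B (adjusted p = 0.0406). This call was lost with no filter on low values and with those groups fitted alone. It was also lost without any of 6 of the 8 libraries (tumors 1, 2 and 3 of Experiment A and 2, 3 and 4 of Experiment B), with differences from 0.54 to 0.72 as each library was left out. In the leukocyte list 6 of 14 rows were higher in Experiment B as well.

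Adding the step of Experiment A to that of Experiment B follows the path from WT to DKO within each experiment, and 1 of 10 members passed along it, against 5.14% of rows. This was Cd93, at -0.95 ± 0.15 (SE, adjusted p = 0.00144). By construction this sum is the direct difference between DKO and WT tumors less the gap between both KEAP1-KO tumor groups. For Cd93 that gap was 0.62, so the sum is not a net change from WT to DKO tumors. The direct difference between DKO and WT tumors, which lie in different experiments, was -0.33 for Cd93 (adjusted p = 0.0604), and there 0 of the 10 members passed by limma while 3 had an unadjusted p under 0.05 (10.6% of rows were called). With WT tumor 2 left out, Flt1 passed there.

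Of the remaining surface and secreted proteins none passed between tumor groups. Vwf encodes von Willebrand factor, the platelet tether that endothelial cells and megakaryocytes store. It held 126, 103, 137 and 175 normalized counts in WT tumors, 205, 111, 127 and 226 in KEAP1-KO (A) tumors, 109.7, 139.6, 179 and 156 in those of Experiment B, and 145, 189.6, 125 and 194 in DKO tumors. These groups overlapped, with differences of 0.26 (-0.23 to 0.75) and 0.16 (-0.33 to 0.65). The Pf4 row of the platelet list, in contrast, fell by 1.41 in Experiment A (adjusted p = 5.72e-05), and which cells it came from was not tested. The summed level of 3 platelet rows ranged from 181 to 286 normalized counts in WT tumors, 72.5 to 112 in KEAP1-KO (A), 97.8 to 205 in KEAP1-KO (B) and 137 to 192 in DKO tumors, and its part in the Vwf level was not tested. By the median of that sum the tumor groups stood in the same order as for the leukocyte list.

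In cultured cells Vwf was seen mainly in the KEAP1-KO genotype. WT cells held 0, 0, 1 and 1 reads, KEAP1-KO cells 17, 14, 16 and 8, and DKO cells 0, 0, 0 and 1. Vwf was higher in KEAP1-KO than in WT cells by 1.84 ± 0.25 (SE, adjusted p = 0.000202) and lower in DKO than in KEAP1-KO cells by 1.95 (difference -1.95 ± 0.25, adjusted p = 0.000214), and no KEAP1-KO library overlapped with the others. With any KEAP1-KO library left out the row no longer passed the filter on low values and was not tested. DKO and WT cells differed by -0.10 (-0.64 to 0.43). The KEAP1-KO cells' mean was 7.53% of that of KEAP1-KO (A) tumors.

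Emcn encodes endomucin, a mucin-like protein of capillary and venous endothelium. It held 45.8, 39.1, 49.3 and 60.3 normalized counts in WT tumors and 57.8, 31.2, 37.7 and 46.7 in KEAP1-KO (A) tumors. In Experiment B it held 46.9, 45.6, 54.8 and 59.9 in KEAP1-KO and 21.9, 40.2, 29.9 and 36.7 in DKO tumors. Every DKO tumor lay below every KEAP1-KO tumor of that experiment. The difference of -0.65 ± 0.20 (SE) just missed the threshold (adjusted p = 0.0595) and passed after quantile normalization, over the rows with a symbol alone, or without DKO tumor 2. With DKO tumor 4, which was low in the skeletal muscle rows, as the only DKO tumor it was -0.45. In Experiment A it was -0.17 (-0.60 to 0.26). Emcn had no reads in cells and was at least 59.3-fold higher in WT, at least 63.6-fold and 75.9-fold higher in KEAP1-KO and at least 44.0-fold higher in DKO tumors.

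Egfl7 encodes a secreted protein of the vessel matrix. Its row gave 43, 19, 29 and 22 reads over the 4 tumors of the WT, KEAP1-KO (Experiment A), KEAP1-KO (Experiment B) and DKO groups, and 1 to 5 reads over the 4 cell libraries of a genotype. Its difference in Experiment A was -0.69 with an interval from -1.52 to 0.15. At this depth a change of Egfl7 between tumors was not detectable.

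Across the genotypes of the cultured cells, 6 members had enough reads to be tested. KEAP1-KO against WT cells gave 3 calls among the 6 (Cdh5 and Vwf higher, Flt1 lower) where 15.5% of all rows were called. DKO against KEAP1-KO cells gave 3 as well (Cdh5 and Cd93 higher, Vwf lower) against 8.83% of rows, and DKO against WT cells gave 3 (Cdh5 and Cd93 higher, Flt1 lower) against 17.7%. In the cells Vwf passed the filter on low values only through the KEAP1-KO libraries, in which it was high. The counts of both comparisons with KEAP1-KO cells include it, so they describe the rows and are not support for the list. Cd93 held 6.84, 6.47, 6.50 and 6.44 normalized counts in WT cells, 9.29, 5.24, 2.83 and 6.27 in KEAP1-KO cells and 17.6, 18.9, 14.7 and 10.2 in DKO cells. Its rise of 0.98 from KEAP1-KO to DKO cells (adjusted p = 0.0246) was lost without any of 5 libraries (KEAP1-KO 2 and 3, DKO 1, 2 and 3) and with those groups fitted alone. The adjusted p of the rise of 0.85 over WT cells was 0.0303 and passed the threshold no more in 7 of 8 fits that left out a library.

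The same genetic step was then compared in cells and in tumors, by the interaction of genotype with growth in the mouse. For the KEAP1 step, 5 of 10 members differed between Experiment A and the cells, against 5.38% of rows. Cells held 0.301% and 3.59% of the WT and KEAP1-KO (A) tumor means for Cdh5, and 0.399% and 7.53% for Vwf. For Pecam1 they held 0.561% and 3.74%, and for Cd93 0.573% and 1.25%. A step in the cancer cells alone would hardly move such a tumor value. The interaction therefore cannot show whether cancer cells responded otherwise in the mouse. For Tie1 and Emcn, with no read in cells, it is the tumor difference alone. Flt1 fell in cells and differed by 0.25 in tumors, an interaction of 1.69 ± 0.17 (SE, adjusted p = 2.52e-07). Cdh5 and Vwf rose in cells and did not pass in tumors, with interactions of -1.95 (adjusted p = 3.28e-05) and -1.58 (adjusted p = 0.00189). Pecam1, which passed in neither alone, had an interaction of -1.47 (adjusted p = 0.0204). Cd93 fell in tumors and differed by -0.13 in cells, an interaction of -1.15 (adjusted p = 0.00125). For the NRF2 step 3 of 10 members differed, against 3.67% of rows: Cdh5 at -1.57 (adjusted p = 0.00087), Flt1 at -0.65 (adjusted p = 0.0275) and Vwf at 2.10 (adjusted p = 0.000147). Here cells held 3.1% and 10.7% of the KEAP1-KO (B) and DKO tumor means for Cdh5. The shares were 9.67% and 15.4% for Flt1, and 8.61% and 0.131% for Vwf. The limit given for the KEAP1 step applies to Cdh5 and Vwf here too. The plot of both steps shows that the shifts in cells and tumors lay apart for Flt1, Cdh5 and Vwf and on top of each other for Kdr. Of the interactions of the NRF2 step, that of Flt1 was lost after rescaling without the 20 highest rows and with those groups fitted alone. It was also lost without any of 6 libraries (KEAP1-KO cells 1, DKO cells 2 and 4, KEAP1-KO (B) tumors 3 and 4 and DKO tumor 3). That of Cdh5 was lost with a pseudocount of 0.4. For Pecam1 the interaction of the KEAP1 step was also lost after quantile normalization and without WT cells 1 or KEAP1-KO cells 3. A pseudocount of 0.4 in place of 4 left 3 of the 5 interactions of the KEAP1 step, all but Pecam1 and Cd93.

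**Figure D3:**
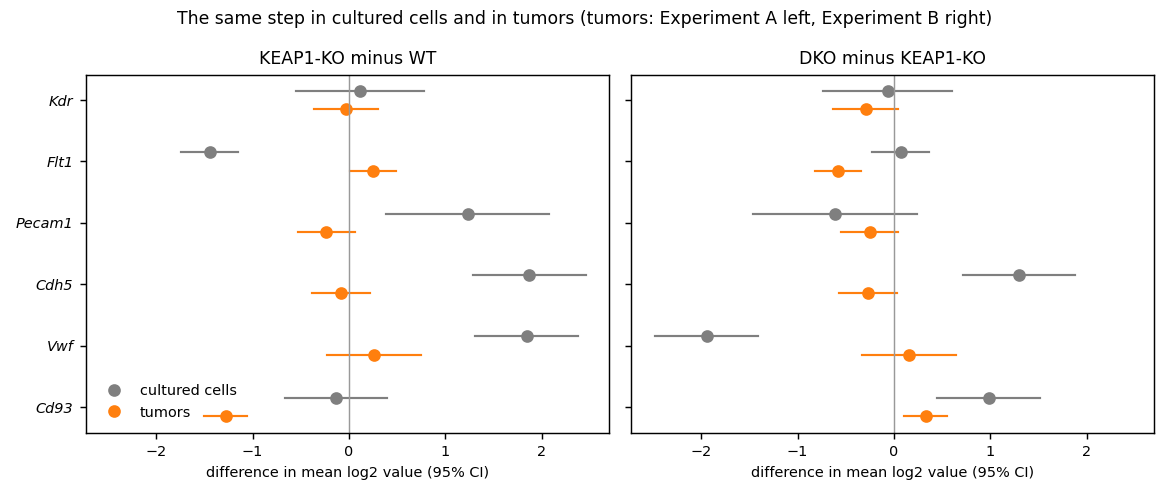
Difference in mean log2 value for the 6 members tested in cells, KEAP1-KO minus WT on the left and DKO minus KEAP1-KO on the right, in cultured cells (grey) and in tumors (orange), with 95% confidence intervals and n = 4 libraries a group. Flt1 lies at -1.45 in cells and 0.25 in tumors on the left, and Vwf at -1.95 in cells and 0.16 in tumors on the right.

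Among the VEGF and angiopoietin ligands Vegfd changed between tumors in both experiments. Vegfa was called in Experiment B, but that call depended on single tumors. Of 9 ligand genes in the fixed list 6 had a row: Vegfa, Vegfb, Vegfc, Vegfd, Pgf and Angpt2. Vegfd, a ligand of VEGFR3, fell by 1.75 from WT to KEAP1-KO tumors (difference -1.75 ± 0.15, SE, adjusted p = 8.76e-07) and rose by 1.15 from KEAP1-KO to DKO tumors (adjusted p = 0.00011). Its tumor means were 136, 37.8, 36.1 and 83.2 normalized counts in WT, KEAP1-KO (Experiments A and B) and DKO tumors. Cultured cells held as much Vegfd, 160.3, 46.9 and 75.2 in WT, KEAP1-KO and DKO cells, and it fell there by 1.70 (adjusted p = 5.75e-07) and rose by 0.64 (adjusted p = 0.00307). The Vegfa row did not pass in Experiment A (0.09, adjusted p = 0.95). It fell by 1.86 from KEAP1-KO to DKO tumors (difference -1.86 ± 0.52, adjusted p = 0.033), from 47.5 to 70.1 normalized counts in KEAP1-KO tumors to 0 to 39.2 in DKO tumors. The value of 0 was that of DKO tumor 1, and without it the difference was -1.16 ± 0.30 (SE, adjusted p = 0.0293). The call was lost without any of 5 other tumors (KEAP1-KO 1 to 4 and DKO 2). With DKO tumor 4 as the only DKO tumor the Vegfa difference was -0.54. The rise of Vegfd in that experiment was then 1.05. In cells the same step of Vegfa was -0.68 (adjusted p = 0.0798).

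Angpt2, which is released by activated endothelium and acts on TIE2, differed by -0.11 in Experiment A and by -0.71 in Experiment B (adjusted p = 0.843 and 0.0879), and its difference between KEAP1-KO and WT cells was -1.57 (adjusted p = 0.000666). Pgf, a ligand of VEGFR1, Vegfb and Vegfc did not pass in either experiment, at -0.42, 0.15 and 0.07 in Experiment A and -0.34, 0.15 and 0.35 in Experiment B. Vegfc rose by 0.88 from KEAP1-KO to DKO cells (adjusted p = 0.0109).

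Other endothelial genes were counted in the same comparisons. Of 37 tested rows of endothelial identity genes 3 were called in Experiment A (median -0.26, against 13.1% of all rows) and 3 in Experiment B (median -0.21, against 8.86%). Gpihbp1, which anchors lipoprotein lipase to capillaries, rose by 0.80 in Experiment A and fell by 0.87 in Experiment B. The ETS factor gene Fli1, also active in leukocytes, and Acvrl1, which encodes the BMP9 receptor ALK1, fell by 1.003 and 0.81 in Experiment A. The tight junction gene Cldn5 and the adhesion gene Esam fell by 1.05 and 0.65 in Experiment B. The call of Gpihbp1 was lost without any of 4 tumors of Experiment A (WT 1 and 2, KEAP1-KO 1 and 4) and without KEAP1-KO tumor 3 or DKO tumor 2 of Experiment B, and that of Cldn5 without any of 4 (KEAP1-KO 3 and 4, DKO 1 and 3). With DKO tumor 4 as the only DKO tumor Gpihbp1, Cldn5 and Esam stood at -0.51, -0.59 and -0.81. The summed level of this list ranged from 2011 to 2366 normalized counts in WT tumors, 1541 to 1963 and 1928 to 2508 in KEAP1-KO (A) and (B) tumors, and 1959.5 to 2045 in DKO tumors. By this sum every KEAP1-KO (A) tumor lay below every WT tumor, while both groups of Experiment B overlapped.

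Among 17 tested rows of other vessel receptors and co-receptors 2 were lower in Experiment A and 3 in Experiment B. Over all rows 13.1% were called in Experiment A and 8.86% in Experiment B, which is the background for this list and for the Notch genes. The VEGF co-receptor Nrp1 fell by 1.19 in Experiment A (adjusted p = 2.89e-05), whereas the netrin receptor Unc5b, the integrin gene Itgb3 and Flt4, which encodes VEGFR3, fell by 1.25, 1.04 and 0.77 in Experiment B. Vessel Notch genes gave 1 call of 10 in Experiment A and 3 of 10 in Experiment B: Dll1 rose by 1.02 and then fell by 2.05, and Dll4, the ligand of sprouting tip cells, and Notch4, an endothelial receptor, fell by 0.57 and 0.39 in Experiment B. In Experiment B the call of Flt4 was lost without any of 4 tumors (KEAP1-KO 3 and 4, DKO 1 and 4) and that of Dll4 without any of 3 (KEAP1-KO 3 and 4, DKO 3). With DKO tumor 4 as the only DKO tumor Unc5b, Itgb3, Flt4, Dll4 and Notch4 stood at -0.44, -0.79, -0.85, -0.36 and -0.34. Dll1 and Notch4 had reads in the cultured cells too, while Dll4 did not exceed 1.08 normalized counts there.

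Leukocyte adhesion molecules of vessels gave 2 calls of 9 in each experiment, where 13.1% (A) and 8.86% (B) of all rows were called. Cultured cells carried much of this list. Its summed level was 312 to 331 normalized counts in WT cells beside 602 to 700 in WT tumors. It was 349 to 398 in KEAP1-KO cells beside 468 to 717 (A) and 428 to 604 (B) in tumors, and 433 to 475 in DKO cells beside 687 to 779 in tumors. Icam1 fell by 2.01 and rose by 1.17, and Vcam1 fell by 1.26 and by a further 1.45 from KEAP1-KO to DKO tumors. Inhibitors of angiogenesis and matrix regulators gave 3 calls of 9 in Experiment A and 2 of 9 in Experiment B. The median summed level of this list was 1903, 1001 and 972 normalized counts in WT, KEAP1-KO and DKO cells. In WT, KEAP1-KO (A), KEAP1-KO (B) and DKO tumors it was 5288, 2715, 2775 and 4930. The part of the cancer cells in the changes of either list was not tested. Thbs1, which encodes the inhibitor thrombospondin 1, fell by 2.36 from WT to KEAP1-KO tumors (adjusted p = 5.98e-05) and rose by 2.37 to DKO tumors (adjusted p = 0.000106), with tumor means of 3507, 615, 510.1 and 2634 normalized counts. Col18a1, whose product releases endostatin, rose by 0.53 and fell by 1.31, and Thbs2 fell by 1.88 in Experiment A. In that experiment the call of Col18a1 was lost without any of 7 of the 8 tumors (all but WT 2) and that of Thbs2 without any of 6 (all but WT 4 and KEAP1-KO 3). Icam1 stood at 0.77 in Experiment B with DKO tumor 4 as the only DKO tumor.

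Markers of other cells were counted in the same way, beside 13.1% of all rows called in Experiment A and 8.86% in Experiment B. In the list of pericytes and smooth muscle 2 of 11 rows were called in Experiment A, with Pdgfrb at -0.98 and Abcc9 at 0.60, and 1 of 11 in Experiment B, Des, at 1.29, in the group that held skeletal muscle rows. The call of Abcc9 was lost without WT tumor 2 or KEAP1-KO tumor 4, and that of Des without any of 7 of the 8 tumors (all but DKO 4). With DKO tumor 4 as the only DKO tumor Des stood at -0.06. Lymphatic genes gave 2 of 4 calls in Experiment A and 3 of 4 in Experiment B, led by Reln (2.96, then -2.06) and Pdpn (-1.95, then 1.15), and Pdpn was also present in WT cells at a mean of 157 normalized counts. In Experiment B, with DKO tumor 4 as the only DKO tumor, Reln stood at -1.76 and Pdpn at 0.85. In the fibroblast list 1 of 7 rows was lower in Experiment A and 3 of 7 were higher in Experiment B, with Dcn at -1.78 and 2.85. No row of the lists of red blood cells (5 tested), keratinocytes (2) or adipocytes (1) was called in either experiment.

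**Figure D4:**
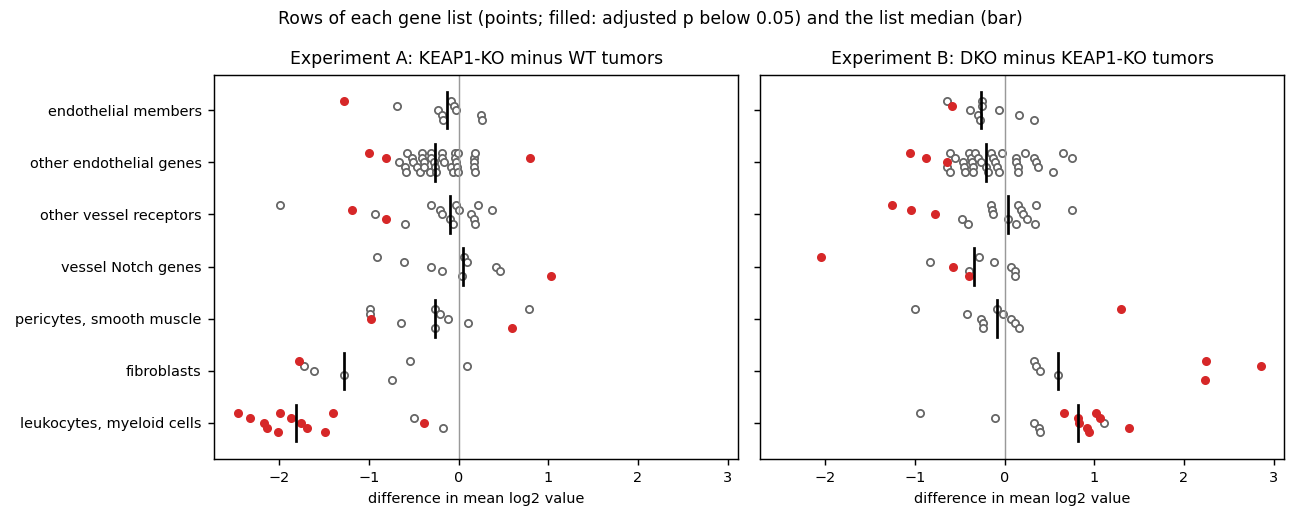
Difference in mean log2 value of every tested row of 7 gene lists, Experiment A on the left and Experiment B on the right, with filled points for an adjusted p below 0.05 and a bar for the list median. The medians of the members and of the other endothelial genes are -0.12 and -0.26 on the left and -0.26 and -0.21 on the right. Leukocyte and myeloid rows lie at a median of -1.81 on the left and 0.82 on the right.

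Across the 16 tumors the members did not vary as 1 block. After the group means were taken out, which leaves only the variation among tumors of the same group, Cdh5 and Pecam1 followed the mean of the other members most closely, with a Pearson correlation of 0.85 and 0.70, and Kdr ran against it at -0.61. Kdr was low where Vwf, Emcn and Pecam1 were high, with coefficients of -0.75, -0.73 and -0.69, and Vwf and Emcn ran together at 0.82. Cd93 followed the others at 0.11. These coefficients are descriptions over 16 libraries, in each of which 1 factor scales every row, and no p is given. The rows most like the mean of all members by level were Erg (0.89), an endothelial ETS factor, Mcam (0.84), Jam2 (0.84), Cdc42se1 (0.83) and Gm50105 (0.80). With the group means taken out they were Jam2 (0.91), which encodes a junction molecule, Rapgef5 (0.89), Suclg2 (0.86), Gm26569 (0.86) and Cd34 (0.84), a marker of endothelium and progenitors.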

How the data were processed

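Sequencing (rRNA-depleted RNA, directional libraries, paired ends) was done by the authors, who estimated transcript abundance with Salmon 1.5.1 against GENCODE mouse transcripts and processed the table in iDEP. The paper names TPM, but the deposited values behave as log2 values of normalized counts plus a pseudocount of 4, with no value below 2 and low values that are whole reads times 1 factor per library. The table holds 34021 transcript rows and 9122 gene rows, and 0 further columns of values. Groups came from the sample titles. Nothing in the labels says that same-numbered libraries share a mouse, and the libraries of cells are not said to be separate cultures, so p-values there measure only the spread between libraries.

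A row entered a fit when 4 or more of its libraries reached 5 normalized counts, and was tested with limma 3.58.1 (R 4.3.3; linear model per row, empirical Bayes with a mean trend, all groups of tumors, of cells or of both sharing the spread), with Benjamini-Hochberg adjustment over the whole table and a threshold of 0.05. Counts were simulated from these tumors for Experiment A (33152 rows). The test recovered 48% of the rows given a log2 change of 1 and 99% of those given 2. Only 200 simulated rows were changed, whereas 4483 of 34215 rows were called in Experiment A, so these shares need not hold there. The changed rows were drawn from those with higher mean counts, and every row was given the same setting for its spread. The shares therefore do not cover low rows such as Egfl7 or the spread of each real row. In Experiment A the confidence intervals of all uncalled members but Egfl7 (-1.52 to 0.15) excluded a log2 change of 1 in either direction. Among them that of Vwf reached farthest (-0.23 to 0.75). For rows given without an interval, a missing call does not exclude a log2 change of 1. Named genes followed a rule: every member, Keap1 and Nqo1 as checks, every ligand with a row, up to 4 called rows with the largest difference in each other list, and the 5 rows most like the members. The members and lists were chosen with earlier results of these data known. Fits of DKO against WT cells, the remaining pairs of tumor groups, the interactions and the liver rows were added after values had been seen. A lower bound on a fold uses 3 reads over the 4 libraries of a group and covers counting error only.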

Additional observations from a re-analysis of the deposited data

Results flagged for a closer look

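Among 62 groups of 4 libraries, 5 held a library far from the other 3. Chance gives about 1 group in 20 for values that vary smoothly. A group with a single read is always flagged, so that rate does not apply here. On the log2 scale, Tek was highest in KEAP1-KO cells 4 at 2.2914, which is 1 read, and lowest in WT tumor 2 at 4.1929. Vwf and Egfl7 were highest in DKO cells 4, both at 2.2791 and 1 read, and Cd93 was highest in WT cells 1 at 3.4385.

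For 8 results the same genetic step differed between tumors and cultured cells by the interaction term, with the limit given above for rows that are low in cells. For the KEAP1 step these were Pecam1 at -1.47, Cdh5 at -1.95, Flt1 at 1.69, Vwf at -1.58 and Cd93 at -1.15 (tumors of Experiment A minus cells). For the NRF2 step they were Cdh5 at -1.57, Flt1 at -0.65 and Vwf at 2.10 (tumors of Experiment B minus cells).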

How the results depend on the processing

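The alternatives were a pseudocount of 0.4, no filter on low values, median centring, quantile normalization, rescaling once the 20 highest rows were left out, rows with a symbol alone, the groups of a comparison fitted alone, a replicate block, and each library left out in turn. DKO tumor 4 as the only DKO tumor, and the same fits for called rows of the gene lists, were chosen after seeing the data, and that tumor's lone value is assumed to vary like the other groups. Calls are not counted for the fit with that tumor alone, since 1 tumor in a group loses calls over the whole table. The number of members called in Experiment A was 1 under every one of these that applied. In Experiment B it was 3 after quantile normalization and over rows with a symbol, 2 after rescaling and 1 to 2 with a library left out (2 without DKO tumor 2 or 4). Between both KEAP1-KO tumor groups it was 0 with no filter, 0 with those groups alone and 0 to 1 with a library left out. Between DKO and WT tumors it was 1 over rows with a symbol and 0 to 1 with a library left out. In the KEAP1 step of tumors against cells it was 3 at a pseudocount of 0.4, and between DKO and KEAP1-KO cells 1 to 3 with a library left out (1 without KEAP1-KO cells 2 or 3). The cause was not tested. Between KEAP1-KO and WT cells it ranged from 2 to 4. No member called in a comparison changed sign.

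Same-numbered libraries did not deviate together (correlations from -0.0301 to 0.0316), and the labels do not say that a number marks a mouse, so the block was kept as an alternative only. With the replicate block the count between both KEAP1-KO tumor groups was 0. Depth limits Egfl7, Tek and the members in cells most.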
